A study of Rattus norvegicus with 9 samples.

Results

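Scara5, Svep1, Cygb, Gpx3, Mxra8, Fhl2 and Bicc1 are grouped here as stromal genes. They were higher in livers scarred by carbon tetrachloride (CCl4) than in normal livers, and they stayed above normal after treatment with tormentic acid (TA). These 7 genes, of 16730 listed in both deposited tables, were chosen because model livers had more of their reads than normal control livers and, for most, TA livers did too. That choice used the Model VS Normal and TA VS Normal values, so both are given as a description and not as a test. Counts in TA livers came from the same rats, and the choice of genes high in both groups bears on TA VS Model as well.

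Scar tissue in the liver is laid down by stellate cells, fibroblasts around the portal tracts and the myofibroblasts they can become. Such cells secrete matrix, anchor to it through integrins and carry enzymes against oxidative stress, and when injury ends they can be lost or return to a quieter state. Cygb (cytoglobin) is a globin of stellate cells, Svep1 is a matrix protein, and Mxra8 and Fhl2 act in adhesion. Scara5 is a scavenger receptor, Gpx3 is found in plasma and Bicc1 is known from cystic kidney disease. A bulk liver sample cannot tell more cells of a type from more RNA per cell.

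Liver RNA of 9 male Sprague Dawley rats was sequenced, 3 in each of 3 groups. The normal control group received neither CCl4 nor TA. The model group received 50% CCl4 in oil by mouth at 2 ml/kg over 9 weeks, and the TA group had the same CCl4 course followed by 3.0 mg/kg of TA, a plant triterpene, for 6 weeks. All rats were fasted for 12 h before the liver was taken. What the model group was given during the TA weeks is not stated in the sources used here. The methods describe separate rats, and p-values measure the spread between the sequenced livers.

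Counted reads per liver ran from 13156735 to 18090405. The liver of model rat 1 stood apart: its 50 most counted genes held 27.9% of its reads, against 40.4% to 45.7% in the other 8 livers. Hepatocyte markers such as Alb and Ttr summed to 23390 CPM in model rat 1, to 66370 and 86540 in the other model livers and to 97710 to 126000 in normal livers. Myofibroblast markers such as Col1a1 and Acta2 summed to 12310 CPM in model rat 1 and to 1142 and 1361 in model rats 2 and 3. CPM are counts scaled to a common library size, here with a composition factor for each library (TMM). Counts of members or of marker genes that move by more than 1.5 times without model rat 1 are also given without it, chosen for the marker genes after seeing the data.

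Promoters of the members are shown first, as a reader may want to see what stands before their starts. That the genes moved together between groups follows from how they were chosen. With group means removed, Pearson's r of log2 CPM between pairs of members ran from -0.165 to 0.952, with a median of 0.441. RefSeq promoter windows of assembly GRCr8 matched 5 of the 7 genes with 6 windows, as Fhl2 has more than 1 start. Each line gives the 160 bases before the start, 5′ to 3′ on the strand of the gene, in the windows that held a match to a searched motif. Capitals mark the matches.

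Svep1, chr5:77783293-77783452, minus strand: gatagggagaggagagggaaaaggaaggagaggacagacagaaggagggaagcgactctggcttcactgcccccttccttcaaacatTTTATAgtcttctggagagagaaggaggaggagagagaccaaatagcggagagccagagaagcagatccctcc
Fhl2, first start, chr9:52954541-52954700, minus strand: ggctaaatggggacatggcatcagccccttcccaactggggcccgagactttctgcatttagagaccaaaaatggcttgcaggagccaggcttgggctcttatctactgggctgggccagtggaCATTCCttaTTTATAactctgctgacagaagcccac
Fhl2, other start, chr9:52923327-52923486, minus strand: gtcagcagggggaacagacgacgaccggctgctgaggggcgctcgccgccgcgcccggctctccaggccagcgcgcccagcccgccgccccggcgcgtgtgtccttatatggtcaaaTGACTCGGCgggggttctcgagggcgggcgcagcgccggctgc
Gpx3, chr10:39529175-39529334, plus strand: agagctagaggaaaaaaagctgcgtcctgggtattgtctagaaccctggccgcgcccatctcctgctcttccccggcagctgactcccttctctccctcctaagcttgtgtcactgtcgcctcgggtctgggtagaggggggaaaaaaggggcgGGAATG
Bicc1, chr20:17448605-17448764, plus strand: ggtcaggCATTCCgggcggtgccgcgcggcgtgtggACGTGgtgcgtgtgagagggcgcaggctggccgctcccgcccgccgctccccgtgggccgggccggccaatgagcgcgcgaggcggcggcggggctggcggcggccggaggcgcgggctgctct

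The 5 motifs were searched on both strands of windows of 300 bases, from 250 before the start to 50 after it. CATTCC, the core bound by TEAD factors, which act with the coactivators of the Hippo pathway, was in 3 of 6 windows, against 14.2% of 33469 rat windows. It lay at position -36 of the first Fhl2 start and -153 of Bicc1, counted back from the start, and on the opposite strand, as GGAATG, at -6 of Gpx3. TATAAA, the TATA box, was in 2 of 6 windows, also against 14.2%, in both on the opposite strand, as TTTATA, at -73 of Svep1 and -27 of the first Fhl2 start. ACGTG, the hypoxia core, was in 1 window (19.3% of all), at -124 of Bicc1. TGACNNNGC, the antioxidant core, was in 1 window (12.1% of all), at -43 of the other Fhl2 start. TGANTCA, the AP-1 motif, was in 0 of 6 (7.33% of all). The windows differed in base composition, from 53.7% G and C with 2 CpG pairs at the first Fhl2 start to 78.3% with 45 at Bicc1, beside medians of 51.7% and 7 over all windows. So none of the 5 searched motifs was in all 6 windows, and other motifs were not searched. Scara5 and Cygb had no window. A match is a string of letters and not a measured site.

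Scara5 and Mxra8 are cell surface proteins. Scara5 is a scavenger receptor that takes up ferritin, the iron storage protein. Its counts were 16, 14 and 13 in the normal livers, 413, 186 and 324 in the model livers, and 226, 149 and 191 in the TA livers. In CPM these were 1.33, 0.901 and 1.09, then 18.5, 12.2 and 22.9, then 16.1, 12.6 and 14.2. Every CCl4 liver, treated or not, lay above every normal liver, and the TA livers lay inside the range of the model livers. The mean was 1.11 ± 0.214 CPM in normal, 17.9 ± 5.37 in model and 14.3 ± 1.75 in TA livers (SD, n = 3 each). Mxra8 is an adhesion molecule with immunoglobulin-like domains and an entry receptor for some arthritis-causing viruses. Its levels were 6.98, 5.54 and 6.04 CPM in normal, 148, 40.4 and 42.0 in model and 35.9, 23.9 and 28.1 in TA livers. The TA livers stood between the other groups without overlap, and model rats 2 and 3 were much nearer to them than model rat 1 was.

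Svep1 and Gpx3 are secreted. Svep1 is a large matrix protein that binds an integrin receptor and takes part in vessel and lymphatic development. It had 10, 12 and 8 reads in the normal livers, the lowest counts among the members, 753, 179 and 266 in the model livers and 161, 63 and 55 in the TA livers. Its levels were 0.83, 0.772 and 0.671 CPM in normal, 33.8, 11.8 and 18.8 in model and 11.5, 5.33 and 4.10 in TA livers. The highest TA liver almost reached the lowest model liver, so the gap between these groups was narrow. Gpx3 is the glutathione peroxidase found in plasma, which reduces peroxides outside the cell. Its levels were 22.8, 21.8 and 29.0 CPM in normal, 708, 198 and 221 in model and 155, 87.7 and 137 in TA livers. Model rat 1 alone carried 15774 of its reads, and model rats 2 and 3 carried 3012 and 3125.

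Cygb, Fhl2 and Bicc1 act inside the cell. Cygb is a globin that binds oxygen and nitric oxide and marks stellate cells in the liver. Its levels were 10.4, 8.30 and 14.3 CPM in normal, 275, 114 and 95.5 in model and 59.2, 40.9 and 52.6 in TA livers. Fhl2, a LIM domain adaptor that links adhesion sites and actin to transcription, was at 2.57, 2.96 and 4.20 CPM in normal, 40.2, 46.8 and 34.7 in model and 20.9, 11.9 and 16.2 in TA livers. Bicc1, an RNA-binding protein that represses translation and is known from cystic kidney disease, was at 4.57, 2.51 and 3.02 CPM in normal, 50.5, 36.7 and 32.9 in model and 15.4, 11.0 and 15.1 in TA livers. For all 3 genes the groups formed separate steps, with the TA livers in the middle. Fhl2 and Bicc1 had tighter model groups than Cygb: the highest model liver was 1.35 times the lowest for Fhl2, 1.54 times for Bicc1 and 2.88 times for Cygb.

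**Figure D1:**
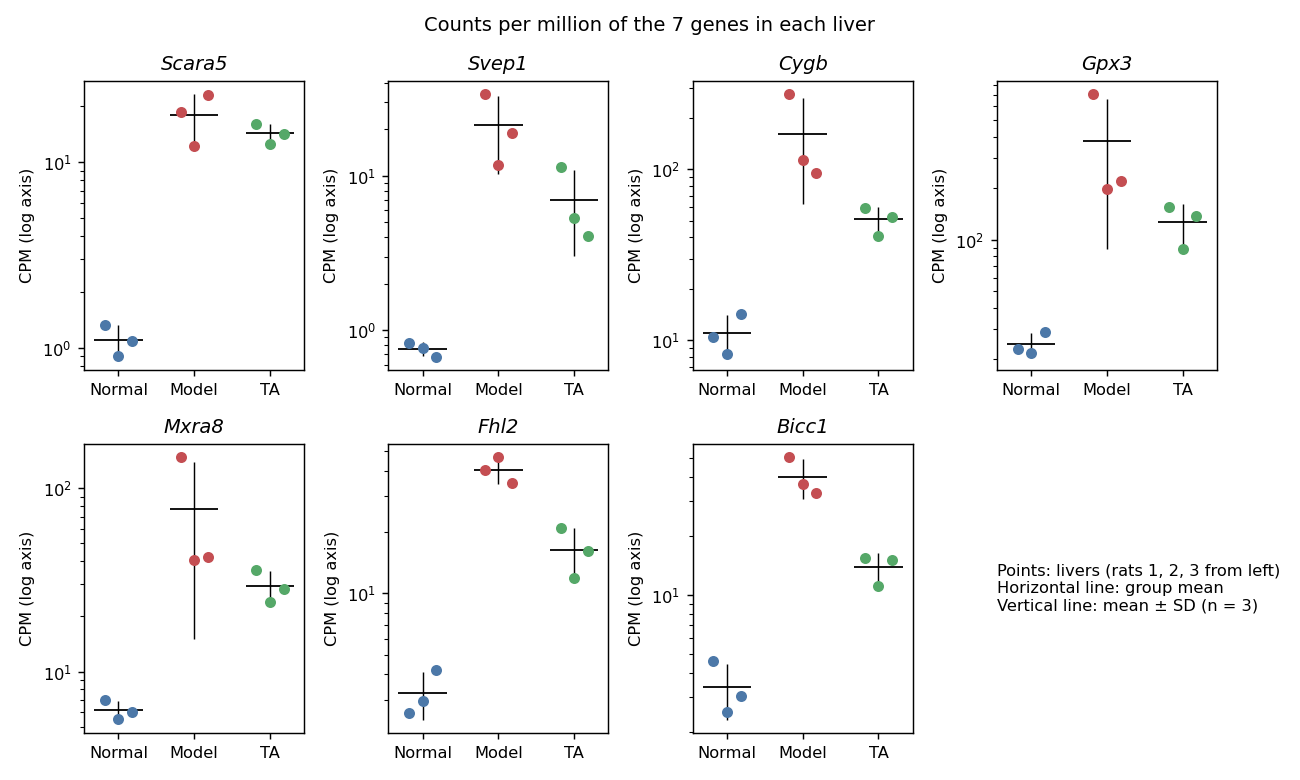
Level of each gene in each liver, in CPM on a log axis, for the normal, model and TA groups. Points are livers, horizontal lines group means and vertical lines the mean ± SD (n = 3). TA livers lie between the normal and the model livers for 6 genes, and for Scara5 they lie within the model range of 12.2 to 22.9 CPM.

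That these genes stayed above normal liver follows from how they were chosen. All 7 genes had every TA liver above every normal liver, beside 9.07% of all genes. Against the model group they were not all alike. In 6 of the 7, all but Scara5, every TA liver was below every model liver, beside 12.8% of all genes. Whether they come from connective tissue cells cannot be read from bulk RNA, and the marker lists below give what the same livers showed.

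Model VS Normal asked what the CCl4 course did to the liver. Fitted log2 fold changes ran from 3.58 ± 0.32 (SE) for Bicc1 to 4.81 ± 0.48 for Svep1. Those of Fhl2 (3.65 ± 0.28), Mxra8 (3.64 ± 0.56), Cygb (3.88 ± 0.49), Gpx3 (3.94 ± 0.58) and Scara5 (4.02 ± 0.37) lay between them. As a ratio, Bicc1 was 11.9 times normal, with a 95% interval of 7.11 to 20.1, and Svep1 28.1 times, with an interval of 13.0 to 60.8. The intervals of the 7 genes overlapped one another. All 7 had an adjusted p under 0.05 (edgeR quasi-likelihood test, Benjamini-Hochberg) in the higher direction, as did 6.86% of 12730 genes tested, and all 7 had groups that did not overlap, as did 20.8%. The members were picked on this contrast, so nothing is read from these counts. All 7 kept the call when a model liver was left out. Without normal rat 1 there were 4 calls and without normal rat 2 or 3 there were 0, when 51, 0 and 0 genes in all were called.

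TA VS Normal asked how far the treated livers were from normal ones. Scara5 had the largest value, 3.66 ± 0.29 on the log2 scale, which is 12.7 times normal with an interval of 7.93 to 20.2. Svep1 followed at 3.16 ± 0.49. The other 5 lay close together, with Gpx3 at 2.34 ± 0.26, Fhl2 at 2.30 ± 0.32, Mxra8 at 2.21 ± 0.24, Cygb at 2.19 ± 0.26 and Bicc1 at 2.01 ± 0.31, which is 4.04 to 5.06 times normal. The lower bound of Scara5, 2.99, was above the upper bounds of Cygb (2.78), Gpx3 (2.94), Mxra8 (2.76) and Bicc1 (2.72). It was below those of Fhl2 (3.03) and Svep1 (4.28). These intervals come from the same livers and from values used in the choice of genes. Whether Scara5 differed from the other members was not tested.

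In TA VS Normal 5 of the 7 had an adjusted p under 0.05 in the edgeR fit, beside 0.23% of 12179 genes in the higher direction, and all 7 had groups that did not overlap, beside 9.07%. These counts follow from the choice of genes. The 2 outside the threshold were Svep1 (adjusted p = 0.0522) and Bicc1 (adjusted p = 0.0511), just past it. Here rats with the same number in both groups deviated together, and with the replicate number as a block in the edgeR fit the adjusted p was 0.0141 for Svep1 and 0.00847 for Bicc1, so that all 7 passed. In that blocked fit 203 genes were called in all, against 32 without the block. Leaving out 1 liver moved the count of members between 0 and 6: it was 0 without normal rat 2, 1 without normal rat 1 or TA rat 1, 2 without normal rat 3, 5 without TA rat 2 and 6 without TA rat 3.

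TA VS Model asked what differed between treated and untreated scarred livers. Scara5 differed by -0.32 ± 0.29 on the log2 scale, with a 95% interval from -0.99 to 0.35 and an adjusted p of 0.584 by edgeR. As a fold the TA group was at 0.801 of the model group, with an interval of 0.505 to 1.27. A fall to below 0.505 was therefore outside the interval, and a small fall or rise was not distinguishable from the spread between rats. The other 6 had negative values with intervals that did not reach 0, and each of these intervals overlapped that of Scara5. Whether Scara5 differed from them in this comparison was not tested. The log2 values were -1.66 (-2.70 to -0.63) for Cygb, -1.62 (-2.81 to -0.44) for Svep1, -1.57 (-2.88 to -0.26) for Gpx3, -1.53 (-2.15 to -0.91) for Bicc1, -1.39 (-2.61 to -0.17) for Mxra8 and -1.31 (-1.94 to -0.67) for Fhl2.

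None of the 12781 genes tested in TA VS Model had an adjusted p under 0.05 by edgeR, where the smallest was 0.23 and 1999 genes had an unadjusted p under 0.05. DESeq2 called 541 genes and limma voom 169. Among the members the edgeR adjusted p was 0.23 for Fhl2 and Bicc1 and 0.252 to 0.584 for the others. DESeq2 gave adjusted p = 0.000478 for Bicc1, 0.00544 for Fhl2 and 0.0204 for Cygb, and limma voom gave 0.0446 for Bicc1 and 0.0469 for Fhl2. So 3 members passed by DESeq2, 2 by limma voom and 0 by edgeR. At the thresholds of the study, which are a log2 fold change beyond 1 with p under 0.05 before adjustment, 6 of 7 were lower in the TA group, beside 10.2% of all genes. Groups did not overlap for the same 6, beside 12.8%, and the exact permutation p of 0.1 for each is the smallest that 3 against 3 can give.

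The size of the difference from the model group depended on model rat 1 for some members. Without that liver the log2 value was -0.48 for Mxra8, -0.71 for Gpx3, -1.02 for Cygb and -1.12 for Svep1. It moved little for Fhl2 (-1.30), Bicc1 (-1.31) and Scara5 (-0.28). The study's thresholds then held for 4 members, without Mxra8 and Gpx3. Leaving out TA rat 2 or TA rat 3 left 3 members in each case.

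**Figure D2:**
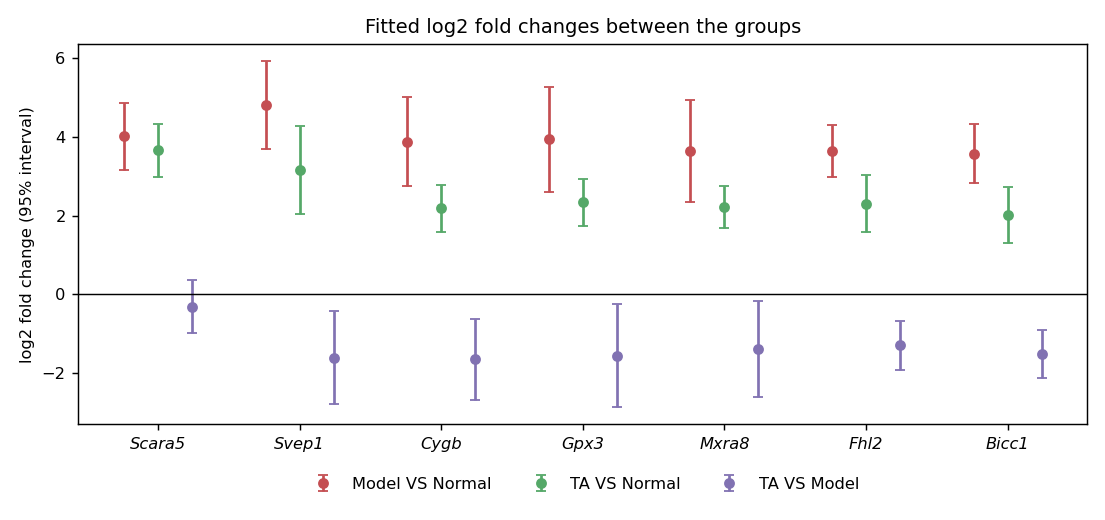
Fitted log2 fold change of each gene in the 3 comparisons, with 95% intervals from the edgeR fit (3 livers per group). Scara5 is the gene whose TA VS Model interval, -0.99 to 0.35, includes 0.

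How much of the rise over normal liver was kept after TA was computed for each gene as the difference of TA and normal means over the difference of model and normal means, in log2 CPM. Scara5 kept 0.927 of its rise, with 0.972, 0.881 and 0.927 in TA rats 1, 2 and 3. Mxra8 kept 0.662, Svep1 0.639, Gpx3 0.633, Fhl2 0.631, Cygb 0.594 and Bicc1 0.572. The median of the 7 was 0.633, and by rat it was 0.740, 0.517 and 0.638. The 873 genes that were higher in Model VS Normal by edgeR's adjusted p kept a median of 0.440, and their quartiles were 0.314 and 0.571. By rat that median was 0.554, 0.356 and 0.449. Both summaries had TA rat 2 lowest and TA rat 1 highest. The numerator and denominator share the normal livers and the members were chosen on both, so this is a description with no test.

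Within the 873 genes, 7 kept a larger share than Scara5. There were 103 above Mxra8, 128 above Svep1, 133 above Gpx3, 138 above Fhl2, 183 above Cygb and 215 above Bicc1. Scara5 was therefore near the end of the range, and Bicc1 was at the upper quartile. Svep1 varied most among TA rats, with shares of 0.829, 0.585 and 0.503. Without model rat 1 the median share of the 7 was 0.701. The median of the 873 genes is not given here without that liver, so 0.701 has no like value beside it.

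**Figure D3:**
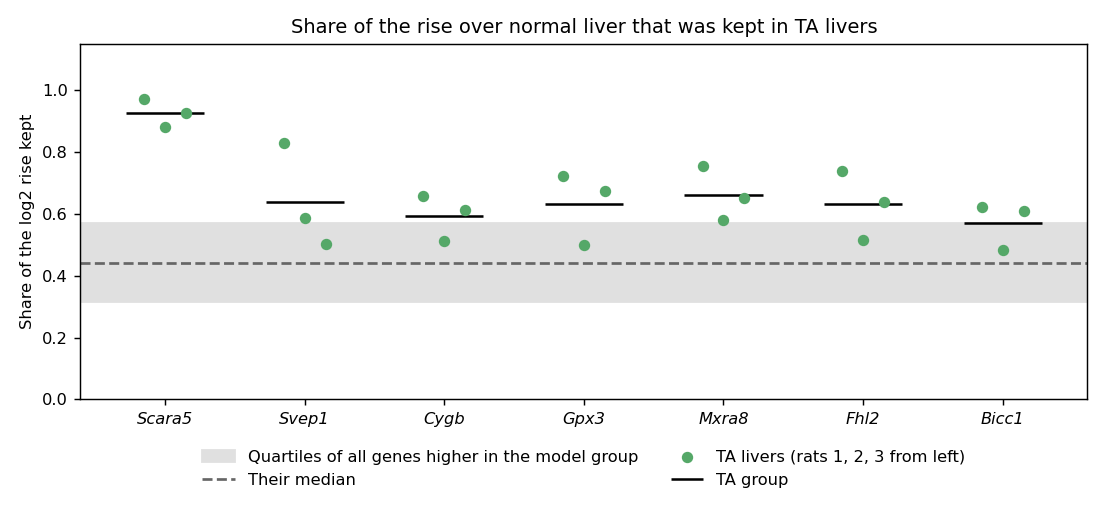
Share of the log2 rise over normal liver that remained in TA livers, for the group (black lines) and for each TA rat (points). The dashed line is the median of the 873 genes higher in Model VS Normal, 0.440, and the grey band runs between their quartiles, 0.314 and 0.571. Scara5 at 0.927 is the highest of the 7.

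The members were not raised in the same proportion in each model liver. Model rat 1 had 3.59 times the mean of model rats 2 and 3 for Mxra8, 3.38 times for Gpx3, 2.63 times for Cygb and 2.21 times for Svep1. It had 1.45 times for Bicc1, 1.05 times for Scara5 and 0.986 times for Fhl2. So 4 members were highest by a wide margin in the liver where the myofibroblast markers were also highest and the hepatocyte markers lowest. In CPM, Scara5 was highest in model rat 3 and Fhl2 in model rat 2. That order rests on the scaling: the composition factor was 1.69 in model rat 1 and 1.16 and 1.05 in model rats 2 and 3. In deposited FPKM model rat 1 was highest for both, with 8.25, 3.72 and 6.35 for Scara5 and 64.0, 50.9 and 34.4 for Fhl2. The part of the marker levels in this split was not tested.

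Scara5 also changed its place relative to the other members. Its log2 level minus the mean of the other 6 was -1.84, -2.10 and -2.17 in normal livers and -2.59, -2.06 and -1.17 in model livers. In TA livers it was -1.02, -0.65 and -0.77. These last values were the highest of all 9 livers, and model rat 3 was the nearest to them. The scaling of a liver cancels in this difference, apart from the prior count added to the log.

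**Figure D4:**
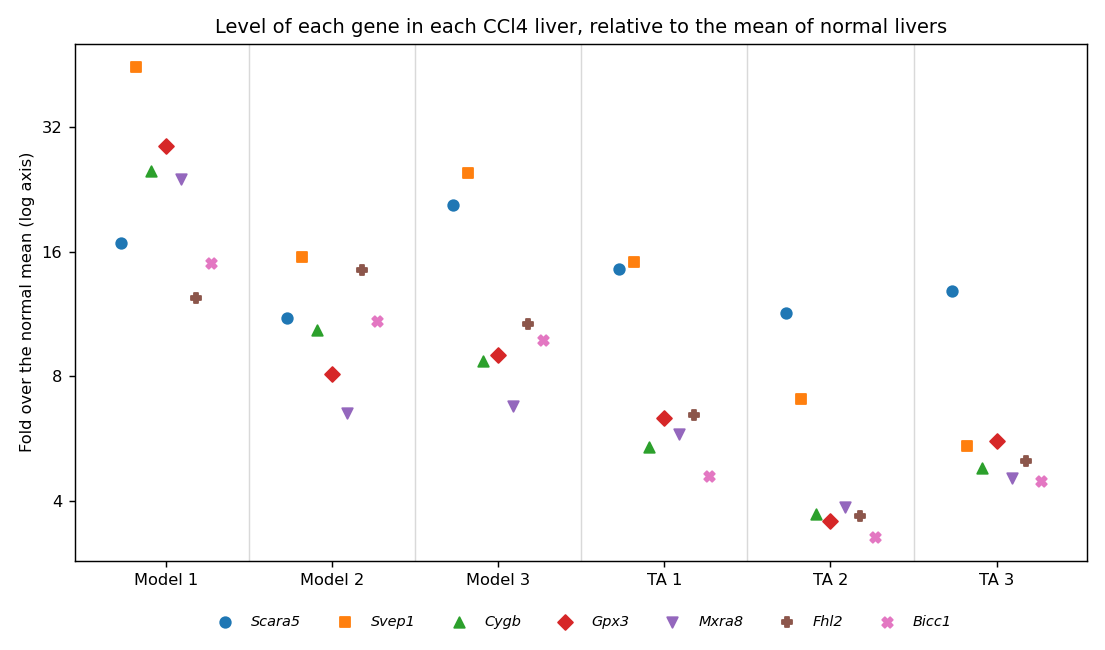
Level of each gene in each model and TA liver as a fold of the mean of the normal livers, on a log axis. Each marker shape and colour is a gene, and each column is a liver. In model rat 1 the genes spread from 12.4 for Fhl2 to 44.6 for Svep1, and in the TA livers Scara5 stays at 11.4 to 14.5.

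Levels per gene length were compared in FPKM, the deposited values scaled to transcript length and to the size of the library. Gpx3 had the highest mean in every group, with 14.0 FPKM in normal, 377 in model and 81.5 in TA livers, and Svep1 the lowest, with 0.0522, 2.47 and 0.544. In normal livers the order was Gpx3, Cygb, Fhl2, Mxra8, Bicc1, Scara5 and Svep1, and of the neighbours in that order Fhl2 (2.56) and Mxra8 (2.16) overlapped. In TA livers Scara5 (3.54) stood above Bicc1 (2.50) without overlap, the reverse of normal livers, where Bicc1 was at 0.543 and Scara5 at 0.244. In TA livers the ranges of Cygb (22.7), Fhl2 (14.6) and Mxra8 (11.5) overlapped with their neighbours. Within each TA liver, though, Cygb was above Fhl2 and Fhl2 above Mxra8. In the model group only Mxra8 (47.4) and Bicc1 (10.4) were neighbours with separate ranges. Within each model liver the order of the means held, apart from Fhl2 and Mxra8. In model rat 1 Mxra8 (104) was above Fhl2 (64.0), and in model rats 2 and 3 it was below.

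Marker lists of liver cell types were set beside the members. Of 8 tested myofibroblast genes, 7 were higher in Model VS Normal at the study's thresholds, beside 16.6% of all genes in that direction, and 6 of 8 without model rat 1. They included Col1a1 (7.08 ± 1.43, log2, SE, and 4.27 ± 0.38 without model rat 1) and Postn (9.56 ± 2.30, and 4.78 ± 0.76). Of 10 portal fibroblast genes, 8 were higher, among them Eln, the elastin gene (4.08 ± 0.51), Thy1 (6.19 ± 1.10) and Fbln1 (4.74 ± 0.85). Without model rat 1, 7 of 10 were higher, with Eln at 3.40 ± 0.27, Thy1 at 5.07 ± 0.91 and Fbln1 at 3.72 ± 0.61. Dpt, the gene of that list with the highest normal level (362 CPM), did not pass, at -0.68 ± 0.31. The list summed to 370 to 397 CPM in normal livers and to 832, 376 and 439 in model rats 1, 2 and 3. Thy1 and Postn averaged 0.11 and 0.12 CPM in normal livers, which limits the precision of their folds. Of 14 quiescent stellate cell genes, 3 were higher (Des, Pdgfrb and Rgs5) and 2 lower (Ecm1 and Angptl6), beside 5.55% of all genes in the lower direction, and 2 higher and 3 lower without model rat 1. Lrat, which stores vitamin A in stellate cells, was at -0.02 ± 0.64. The median log2 value was 4.14 for the myofibroblast list, 3.63 for the portal fibroblast list and -0.07 for the quiescent stellate list, against 0.017 for all genes. These medians were 2.40, 2.24 and -0.30 without model rat 1.

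In TA VS Model all 8 myofibroblast genes and 7 of 10 portal fibroblast genes were lower at the study's thresholds, beside 10.2% of all genes in that direction. These counts fell to 3 of 8 and 3 of 10 without model rat 1. The portal fibroblast gene Igfbp6 was higher (1.84 ± 0.74), beside 2.11% of all genes in that direction. In TA VS Normal 3 of 6 myofibroblast genes and 4 of 9 portal fibroblast genes were higher at those thresholds, beside 4.24% of all genes, and Lox was lower. The model levels of several myofibroblast genes rested on model rat 1. Postn, a matrix protein of active scar, was at 293 CPM in model rat 1, at 4.21 and 3.25 in model rats 2 and 3 and at 0.641, 0.169 and 0.149 in TA livers. Col1a1 was at 4430, 231 and 243 CPM in model livers and at 176, 93.9 and 83.7 in TA livers.

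Shares of the rise kept were computed for the genes of these lists that had an adjusted p under 0.05 in Model VS Normal by edgeR. In the portal fibroblast list they were 0.688 for Fbln1, 0.651 for Eln, 0.420 for Pi16 and 0.361 for Thy1. In the myofibroblast list they were 0.568 for Col1a1, 0.548 for Col3a1, 0.418 for Timp1, 0.207 for Tagln and 0.126 for Postn. So the shares varied within each list, and 7 of these 9 genes were below the lowest member, Bicc1 at 0.572. Without model rat 1 they ran from 0.428 for Thy1 to 0.818 for Fbln1 and from 0.192 for Postn to 0.769 for Col3a1. The median of the members was then 0.701, and Fbln1, Col3a1, Col1a1 (0.751) and Eln (0.743) lay above it. Bicc1 was then at 0.602, and Thy1, Pi16 (0.569), Timp1 (0.552), Tagln (0.316) and Postn lay below it.

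Lists of other cell types differed in how they moved. Cholangiocyte genes, which mark bile duct cells, were higher in Model VS Normal for 5 of 6 tested, beside 16.6% of all genes. The list summed to 35.8 to 56.6 CPM in normal, 125 to 194 in model and 57.1 to 59.2 in TA livers. These 5 genes kept shares from 0.207 for Krt19 to 0.418 for Sox9, below those of the members. Mesothelial genes were higher for 2 of 3 (Msln and Wt1), and the list summed to 0.839 to 12.6 CPM in normal, 35.3 to 98.5 in model and 13.8 to 23.4 in TA livers. For smooth muscle the count was 1 of 5, a share near that of all genes, and for hepatocytes 0 of 7. It was 2 of 4 for macrophages (0 of 5 without model rat 1) and 0 of 4 for lymphocytes (2 of 5 without it). In the lower direction 0 hepatocyte and 0 macrophage genes passed, beside 5.55% of all genes. Without model rat 1, 3 of 7 hepatocyte genes and 2 of 5 macrophage genes were lower. Sinusoidal endothelium had 1 higher and 1 lower of 5. Fat cell markers had 0 higher and 1 lower of 1 tested. Pancreas and kidney markers had none tested and summed to at most 1.42 CPM in any liver. Which of these cells held the members' RNA was not tested.

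Relatives and partners of each member were taken from lists. Among class A scavenger receptors and ferritin genes, the group around Scara5, 2 of 8 were higher in Model VS Normal at the study's thresholds, a share near the 16.6% of all genes. They were Scara3 (4.88 ± 0.80) and Colec12 (3.88 ± 0.57), and Marco, a receptor of macrophages, was 1 of 8 lower (-2.17 ± 0.60), beside 5.55% of all genes. Scara3 kept a share of 0.254 and Colec12 0.544 after TA, against 0.927 for Scara5. Scara3 was near 0 in normal livers, with a mean of 0.105 CPM. The ferritin light chain gene Ftl1 was at 0.25 ± 0.35 in Model VS Normal and Tfrc, the transferrin receptor, at -0.14 ± 0.46. Against normal livers, the TA group was at 0.14 ± 0.30 and -0.33 ± 0.40 for these genes. So neither was past the thresholds in the livers where Scara5 was high.

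Among glutathione peroxidases, 3 of 4 tested rose in Model VS Normal as Gpx3 did, beside 16.6% of all genes at the study's thresholds, and Gpx1, the main enzyme of the hepatocyte cytosol, was lower (-1.28 ± 0.46). The 3 were Gpx2 (7.03 ± 1.14), Gpx7 (3.79 ± 0.79) and Gpx8 (3.35 ± 0.67), the last 2 being enzymes of the endoplasmic reticulum. The same 3 were higher at the study's thresholds in TA VS Normal, and Gpx1 was again lower (-1.22 ± 0.28), beside 1.02% of all genes in that direction. Gpx2 kept 0.769 of its rise, Gpx7 0.605 and Gpx8 0.522, and Gpx3, at 0.633, lay between Gpx7 and Gpx2. Gpx2 was at 0, 0.193 and 0 CPM in normal livers, which limits the precision of its fold and its share. In TA VS Model the same 3 were lower at those thresholds, and 0 without model rat 1. Of 2 other globins tested, Hbb (-0.12 ± 0.39) and Hba-a2 (-0.29 ± 0.47), which can share reads with its near copy Hba-a1, did not pass the thresholds in Model VS Normal, unlike Cygb.

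Of 7 tested partners of Svep1, 5 were higher in Model VS Normal at the study's thresholds, beside 16.6% of all genes. They were Itgb1, Tie1, Angpt1, Angpt2 and Vcam1, with log2 values from 1.33 to 2.20. Without model rat 1 only Angpt1 was, 1 of 7, so this count rests on that liver. Itga9, which codes for the integrin chain that binds Svep1, was at 0.91 ± 0.43 and did not pass. None of the 5 had an adjusted p under 0.05. In TA VS Normal 1 of 7 was higher, beside 4.24% of all genes. It was Tnc, another ligand of that integrin (3.70 ± 0.80), which was near 0 in normal livers, with a mean of 0.083 CPM.

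For Fhl2, 4 of 7 related genes were higher in Model VS Normal, beside the same 16.6%: its relatives Fhl1 (2.78 ± 0.54) and Fhl3 (2.49 ± 0.65), and Ctgf (2.88 ± 0.30) and Cyr61 (1.47 ± 0.47), a pair of secreted targets of SRF and TEAD. Fhl1, Ctgf and Cyr61 were higher at the study's thresholds in TA VS Normal too, and Fhl3 was at 0.46 ± 0.37. Srf itself was at 0.52 ± 0.22 in Model VS Normal. Fhl1 kept a share of 0.385 and Ctgf 0.610, beside 0.631 for Fhl2. The TA livers differed widely for Ctgf, at 89.3, 15.9 and 27.6 CPM, against 68.0, 94.9 and 62.3 in model livers. Of the relatives of Mxra8 by name, Mxra7 was tested and was higher in Model VS Normal (2.76 ± 0.53), with a share kept of 0.308.

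Of 9 partners of Bicc1, 2 were higher in Model VS Normal, a share near the 16.6% of all genes. They were Anks6 (3.18 ± 0.55), a ciliary protein that binds Bicc1, and Pkd2 (2.26 ± 0.37), a cystic kidney channel whose mRNA Bicc1 is known to regulate. Both also passed the study's thresholds in TA VS Normal, at 1.25 ± 0.47 and 1.20 ± 0.29, and in TA VS Model, at -1.89 ± 0.49 and -1.02 ± 0.35. Without model rat 1 the TA VS Model values were -1.38 ± 0.45 and -0.61 ± 0.28, and Pkd2 no longer passed. Anks3, which bridges Bicc1 and Anks6, was at -0.44 ± 0.26, and Cnot1, of the deadenylase that Bicc1 recruits, at -0.43 ± 0.24, neither past the thresholds. Pkd1, the partner of Pkd2, was at 0.09 ± 0.22.

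The genes whose pattern was most like the members were ranked by Pearson's r over the 9 livers among the 7954 genes whose log2 CPM averaged 3 or more. For the mean of the 7 members the 10 nearest were Eln (r = 0.994), Cpz (0.993), Adamts2 (0.990), Lpl (0.989), Itga8 (0.988), Htra3 (0.987), Mgp (0.984), Loxl1 (0.983), Tgfb3 (0.981) and Scarf2 (0.976). Eln, Adamts2, Mgp and Loxl1 code for matrix or for enzymes that process collagen and elastin, Itga8 for an integrin chain and Lpl for lipoprotein lipase. The livers form separate groups, so such an r mostly reads the step between normal and CCl4 livers. Of the 10, 3 stayed among the nearest 10 by Spearman's rho and 7 without model rat 1.

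Scara5 had its own neighbours. Its nearest genes were Adamtsl2 (r = 0.987) and Ltbp1 (r = 0.986), which code for matrix proteins that handle latent TGF-beta and microfibrils. Both were high in CCl4 livers and little lower after TA, as Scara5 was. Adamtsl2 was at 22.2 ± 6.30 CPM in normal, 263 ± 40.4 in model and 194 ± 56.2 in TA livers, and Ltbp1 at 9.89 ± 1.02, 77.7 ± 2.99 and 56.9 ± 10.6 (SD, n = 3 each). Their TA VS Model log2 values were -0.44 ± 0.35 and -0.45 ± 0.24 (SE), and they kept shares of 0.867 and 0.843. They were found by their likeness to Scara5 in these livers, so these values describe the likeness.

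The other members had different nearest genes. They were Itga8 and Wls for Svep1, Eln and Plod2 for Cygb, Aebp1 and Eln for Gpx3, Aebp1 and Htra3 for Mxra8, Pamr1 and Itga8 for Fhl2, and Lpl and Pmp22 for Bicc1, all with r from 0.971 to 0.996. Eln was shared by Cygb and Gpx3, Aebp1 by Gpx3 and Mxra8, and Itga8 by Svep1 and Fhl2.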

How the data were processed

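Liver RNA of 9 rats was sequenced, 3 libraries per group. The authors selected poly(A) RNA, trimmed the reads with Trimmomatic and Cutadapt, mapped them with STAR and counted them per gene with HTSeq-count. Their methods name a human genome, the submitters' processing notes name mm9 and DESeq2, and the gene symbols are those of rat, so the build behind the counts is unclear, and the only coordinates given are those of RefSeq promoter windows of assembly GRCr8. Unnormalized counts of reads on each gene were deposited by the authors and entered every test here, beside FPKM values, which were used for levels per length. Of 2 tables, 1 holds normal and model and the other model and TA livers, with the same model counts, so TA VS Normal used the genes in both. Deposited log2 fold changes, p-values and size-factor normalized values were not used. The TA labels carry no dose and were treated as a single group that received 3.0 mg/kg, after the series' design.

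The members and gene lists were chosen with earlier results of these data known. Tests were edgeR 4.0.16 quasi-likelihood fits (R 4.3.3) with TMM and edgeR's low-count filter, run on the libraries of the groups compared alone, adjusted by Benjamini-Hochberg over all genes tested. The standard error is the log2 fold change over the square root of F. CPM and log2 CPM used TMM over 9 libraries and, on the log scale, a prior count of 2. Single genes were compared by a two-sided exact permutation test. The fits were tested on simulated data. Of 140 entries in 20 lists, 125 matched a gene in the tables, and the rest were not analysed here. Named genes are the members, the 10 genes most like their mean, the 2 most like each, and called genes and examples from the lists. Depth was 13156735 to 18090405 counts per library, and how much of the error comes from depth and how much from rats was not worked out.

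Replicate numbers come from the labels, for different rats. In TA VS Normal, same-numbered libraries deviated together from their group means (r = 0.233, 0.37 and 0.452), so the fit with a replicate block is given there, and in the other comparisons it is given with the alternatives. The alternatives were DESeq2 1.42.0, limma 3.58.1 voom with sample weights, a newer form of the quasi-likelihood fit, library totals or DESeq2 size factors for scaling, no filter or at least 10 counts in every library, all 9 libraries in 1 fit, the replicate block, a prior count of 0.5, rank correlation and leaving out each library. Marker lists without model rat 1 were added after seeing the data.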

Additional observations from a re-analysis of the deposited data

How the results depend on the processing

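All 7 genes stayed above normal in value in both comparisons with normal liver under every alternative, and 6 stayed lower in TA VS Model. Scara5 in TA VS Model turned to 0.0334 on the log2 scale with limma voom (adjusted p = 0.948). In Model VS Normal 1002 genes were called, and 2654 with DESeq2, 3433 with limma voom, 1980 with library totals, 465 with at least 10 counts in every library, 1757 with all 9 libraries in 1 fit, 1216 with the replicate block and 0 to 2537 leaving out 1 library, with 0 to 7 members. In TA VS Normal the 32 genes called became 360 with DESeq2, 126 with limma voom, 56 with library totals, 76 without a filter, 14 with all 9 libraries in 1 fit (3 members), 203 with the replicate block (7 members) and 1 to 61 leaving out 1 library (0 to 6 members). In TA VS Model the members lower at the study's thresholds were 6, and 3 with limma voom and 3 to 6 leaving out 1 library. The genes past those thresholds were 1571, and 2447 with library totals, 1719 with the replicate block and 792 to 2792 leaving out 1 library. Genes with an adjusted p under 0.05 there were 0, and 541 with DESeq2, 169 with limma voom, 0 with the replicate block and 0 to 1 leaving out 1 library. The replicate block changed no other call of a member. Fewer samples enter a fit that leaves 1 out, and for the other moves the cause was not tested.

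Library totals moved the median of all genes to 0.65 in Model VS Normal, 0.176 in TA VS Normal and -0.481 in TA VS Model, so member values shifted with it, and calls in TA VS Model were 3.64% higher against 17.2%. In Model VS Normal calls were 87.1% higher, 67.9% with DESeq2 and 57.4% with limma voom, and in TA VS Model 35.1% with limma voom. The median share kept was 0.581 with library totals, 0.634 with a prior count of 0.5 and 0.577 to 0.701 leaving out 1 library. Of the 10 genes most like the members, 3 remained by rank correlation. Svep1 could not be tested with at least 10 counts in every library where normal livers entered. Svep1 had 8 to 12 reads in a normal liver, which limits the precision of its fold over normal.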
